A study of Macaca mulatta with 12 samples.

Results

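Short productive CDR3 clonotypes were examined in the T cell receptor beta chain (TRB) repertoires of rhesus macaques. A clonotype was a distinct CDR3 nucleotide sequence of a library, and CDR3 is the stretch of the receptor in which the V, D and J gene segments are joined. Members were the clonotypes of the 8 post-infusion libraries that could be read through without a stop codon or frame shift (productive) and whose CDR3 held 33 nt or fewer. They numbered 8067 of 200807 productive clonotypes (4.02%), and of 218326 clonotypes of any kind in the whole series. The 8067 members held 7467 distinct nucleotide sequences and 6420 distinct amino acid sequences. The reference was 183480 productive clonotypes of 36 to 51 nt, called mid-length here. Length chose the members, so the shorter CDR3 as such is not a result.

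RNA came from peripheral blood mononuclear cells of the animals named Amazo, Nebula and Rocket, all infused with apoptotic donor leukocytes (ADLs, donor white cells that die after infusion) on days -7 and 1 by the series text, followed here, while a legend in the study places the second infusion on day 0. Per the study's methods these animals were nondiabetic and not transplanted, shared 1 DRB allele with the donor, and received short-term immunosuppression with an anti-CD40 antibody and rapamycin beside anti-inflammatory agents. Libraries were labelled day -5 and day -4 in each name, 2 and 3 days after the first infusion, day 0 in Nebula, 7 days after it, and day +3 in Amazo, 2 days after the second infusion. There was 1 library per name and day, and 4 baseline libraries carried other names.

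In the thymus, the TRB locus is assembled by joining a V segment to a joined D and J segment. Exonucleases trim the segment ends and terminal transferase adds bases that no segment encodes, so CDR3 length follows from which segments are used, how far they are trimmed and how much is added. The CDR3 loop is the part of the receptor that mainly contacts the bound peptide, and sequences with few added bases are known to be made repeatedly by different individuals.

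Total counts ran from 42695 to 556954 after infusion and from 63 to 74 at baseline. The libraries labelled Amazo day -5 and Amazo day +3 held the repertoire of both Rocket libraries. Over mid-length clonotypes, the Morisita-Horn index, which runs from 0 for no overlap to 1 for identity, was 0.772 to 0.985 in 9 pairs (the 6 among Amazo day -5, Amazo day +3 and both Rocket libraries, and the 3 among Nebula libraries). It was at most 0.0129 in the other 19 pairs, among them each pair with Amazo day -4. Names are therefore given as labels, and the 3 day -4 libraries, whose repertoires differed, served as the replicates of every test of short against mid-length clonotypes. An exact sign-flip permutation test cannot go below p = 0.25 with 3 libraries. Over all 8 libraries the same exact test can reach p = 0.0078125, but those libraries are not independent.

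The sequences below are shown because they were among the largest short clonotypes or among those found in the most day -4 libraries. Each is read 5′ to 3′ from the deposited clone tables, with the bases that match neither the V nor the J segment in capitals.

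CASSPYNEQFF, TRBV12-2 and TRBJ2-1: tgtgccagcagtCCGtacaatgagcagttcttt
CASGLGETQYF, TRBV28 and TRBJ2-5, first form: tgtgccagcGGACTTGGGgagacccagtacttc
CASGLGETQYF, TRBV28 and TRBJ2-5, other form: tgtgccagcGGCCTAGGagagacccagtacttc
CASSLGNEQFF, TRBV28 and TRBJ2-1, first form: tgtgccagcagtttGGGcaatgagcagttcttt
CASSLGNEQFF, TRBV28 and TRBJ2-1, other form: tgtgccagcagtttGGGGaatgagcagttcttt
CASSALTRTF, TRBV28 and TRBJ1-2: tgtgccagcagtGCCCTAACTAGGaccttc
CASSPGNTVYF, TRBV10-1 and TRBJ1-3: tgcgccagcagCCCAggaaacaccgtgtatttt
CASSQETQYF, TRBV3-1 and TRBJ2-5: tgtgccagcagccaagagacccagtacttc
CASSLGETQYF, TRBV9 and TRBJ2-5: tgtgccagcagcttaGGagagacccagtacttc

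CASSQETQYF had no capital at all, because its V and J matches left no base between them. Its V match covered 16 bases. TRBJ2-5, with 20 germline CDR3 bases, had lost 1, so both matches overlapped in this CDR3 of 30 nt. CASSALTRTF was built the other way, with 12 bases between V and J and only 6 bases left of TRBJ1-2. The V gene of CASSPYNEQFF was uncertain, since a further V gene stood among its hits.

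Most members lay just inside the length limit. Of the 8067 short clonotypes, 6115 (75.8%) held 33 nt, 1393 held 30 nt and 559 held 27 nt or fewer. Clonotypes of 33 nt made up 2.92% to 3.33% of the productive clonotypes of a library and those of 36 nt, just outside the limit, 6.66% to 7.81%. The commonest length was 42 nt.

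The share of short clonotypes was close to 4% in each library. It was 4.51% in Amazo day -4, 3.90% in Amazo day -5, 3.94% in Amazo day +3, 4.04% in Nebula day 0, 4.43% in Nebula day -4, 3.84% in Nebula day -5, 3.89% in Rocket day -4 and 3.67% in Rocket day -5. The 95% Wilson intervals, which cover counting error only, reached from 3.39% to 4.78% over the 8 libraries. At baseline the short clonotypes numbered 2 of 47, 1 of 37, 2 of 43 and 0 of 29, the last of which allows a share of up to 11.7% by the same interval, so a difference from the post-infusion libraries was not detectable at this depth.

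By counts, the libraries fell into unlike levels. Short clonotypes held 6.22% of productive counts in Amazo day -4, 8.92% in Amazo day -5, 10.1% in Amazo day +3, 8.04% in Rocket day -4 and 8.57% in Rocket day -5. They held 4.05%, 3.85% and 3.70% in Nebula day 0, day -4 and day -5. The 5 libraries above 6% each held 3 to 5 short clonotypes at 0.1% of the library or more, and the Nebula libraries held 0. Productive clonotypes of any length at that limit numbered 30 to 48 in the former and 18 to 21 in the latter. Over all 8 libraries, 0.314% of short and 0.139% of mid-length clonotypes reached it on average. The share was higher in short clonotypes in 5 libraries and lower in 3 (exact sign-flip p = 0.102). Without the largest short clonotype of each library the share by counts was 3.64% to 5.04%.

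Between day -5 and day -4, the short share of clonotypes was 3.81% ± 0.118 and 4.28% ± 0.337 (SD, n = 3 each). It was higher at day -4 in 3 of 3 names, by 0.475 percentage points on average (exact sign-flip permutation p = 0.25, the smallest possible, and p = 0.2 without the pairing). The share by counts was 7.06% ± 2.92 and 6.04% ± 2.10, a difference of -1.03 points (p = 0.5 by the same exact test). The sign of that difference turned to 0.615 without short clonotypes of 0.1% or more and to 0.502 at a limit of 30 nt. Both Amazo libraries of this comparison held different repertoires, so day and repertoire cannot be told apart in that pair. The libraries labelled Amazo day -5 and Rocket day -5 held 1 repertoire, so the SD and the p at day -5 do not rest on 3 independent repertoires.

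**Figure D1:**
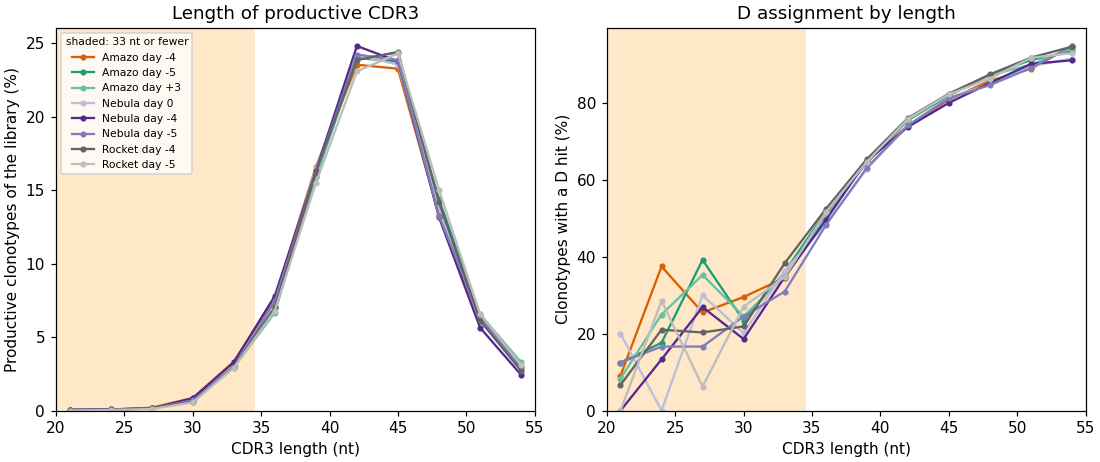
Left, the percentage of productive clonotypes of each library at each CDR3 length in nt. Right, the percentage of clonotypes of that length with a D hit. Lines are the 8 post-infusion libraries and shading marks 33 nt or fewer. The libraries lie close together from 33 nt upward, where D hits rise with length, and scatter below 30 nt, where clonotypes are few.

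The D segment was found less often in short clonotypes. At day -4, a D hit was present in 32.8% of short clonotypes in Amazo, 30.5% in Nebula and 34.3% in Rocket, against 74.9%, 74.4% and 76.9% of mid-length clonotypes. The mean difference was -42.9 ± 0.986 percentage points (SD, n = 3), in the same direction in 3 of 3 libraries (exact sign-flip p = 0.25). Over all 8 libraries, short clonotypes ranged from 28.9% to 34.3% and mid-length ones from 74.4% to 76.9% (exact sign-flip p = 0.0078125). Bases matched to D are part of the length that chose the members. The direction was therefore favoured by that choice, and these p-values are not support for it. Along the length scale the share of all clonotypes with a D hit was 23.6% at 30 nt, 35.3% at 33 nt, 50.4% at 36 nt and 74.9% at 42 nt, with no step at the limit of 33 nt.

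Where a similar number of bases, in the same bin, lay between V and J, the gap in D hits was smaller. With 6 to 8 bases, a D hit was found in 36.4%, 36.4% and 39.2% of short clonotypes in Amazo, Nebula and Rocket at day -4, and in 44.2%, 43.4% and 45.3% of mid-length ones. With 9 to 11 bases the values were 53.4%, 57.1% and 65.1% against 66.9%, 68.8% and 70.9%. Short clonotypes were lower in 3 of 3 libraries in both bins. This matching was added after the data had been seen. Clonotypes were not matched for the number of bases within a bin, so the classes can still differ in it there.

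Among short clonotypes with a D hit, TRBD1 stood first in 72.0%, 78.0% and 74.9% in Amazo, Nebula and Rocket at day -4, against 70.6%, 70.5% and 66.9% of mid-length ones. The difference was 5.63 ± 3.72 points (SD, n = 3, exact sign-flip p = 0.25), and -8.83 when clonotypes were weighted by their counts. Both D genes were among the hits in 29.7%, 34.1% and 34.1% of these short clonotypes, against 25.0%, 24.3% and 23.7% of mid-length ones. TRBD1 was the only D gene hit in 45.6%, 48.3% and 43.0%, against 50.0%, 50.3% and 47.5%, lower in short clonotypes in each of these libraries. TRBD2 lies downstream of the TRBJ1 genes, so a deletion that joins TRBD2 to a TRBJ1 gene is not expected from the order of the locus. Among short clonotypes whose only D hit was TRBD2, 23.8% to 36.6% nevertheless carried a TRBJ1 gene over the 8 libraries, against 11.6% to 17.98% of mid-length ones. The D hits of short clonotypes spanned 5.99 to 6.22 bases on average and those of mid-length clonotypes 7.38 to 7.58.

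The shorter CDR3 was made up of less of everything. At day -4, short clonotypes held 6.77 ± 0.219 bases between V and J and mid-length ones 12.98 ± 0.177 (SD, n = 3). Of these, 2.02 and 5.63 bases matched a D segment and 4.75 and 7.35 matched no segment. The part from V was 11.17 and 12.87 bases, and the part from J was 13.94 and 17.38 bases. Of the total difference of 11.3 to 11.4 bases, 54.1% to 55.6% lay between V and J, 30.1% to 30.7% in the J part and 14.1% to 15.8% in the V part.

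Most of the difference in the V and J parts was in trimmed bases. J segments had lost 6.79 ± 0.0989 bases in short and 4.16 ± 0.121 in mid-length clonotypes, and V segments 4.27 ± 0.151 and 2.80 ± 0.112 bases (SD, n = 3). Use of segments with fewer germline CDR3 bases made a smaller difference, -0.585 bases for J and -0.216 for V. These parts make up the length that chose the members, so their values are a description with no test. The direction of each was the same in 8 of 8 libraries.

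Junctions with no base left between the V and J matches were a recurrent form. This form includes clonotypes whose V and J matches overlap, like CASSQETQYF, so it does not count direct joins alone. Among short clonotypes, it made up 3.39% to 6.005% over the 8 libraries. Among mid-length clonotypes the share was 0.232% to 0.318%. Junctions of 2 or fewer bases made up 11.1% to 17.6% and 0.760% to 0.946%. Bases between V and J are part of the length that chose the members, so these values are a description.

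**Figure D2:**
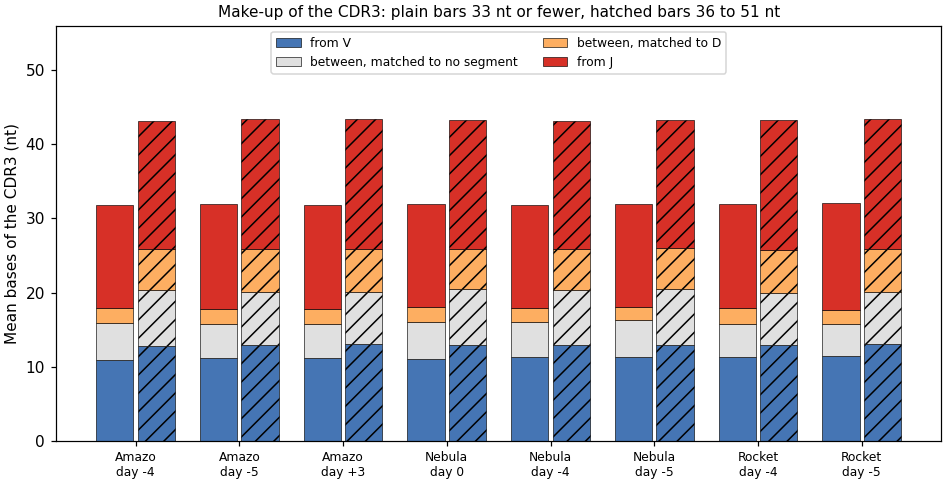
Mean bases of the CDR3 that came from V, from J, from a matched D segment and from no segment, stacked, in each of the 8 post-infusion libraries. Plain bars are clonotypes of 33 nt or fewer and hatched bars clonotypes of 36 to 51 nt. The D part is 1.73 to 2.11 bases in plain bars and 5.49 to 5.83 in hatched bars.

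J genes with short germline ends were used more in short clonotypes, and those with long ends less. The number of clonotypes per gene was compared with the quasi-likelihood test of edgeR over the day -4 libraries, with the library as a block, each clonotype once, and Benjamini-Hochberg adjustment. Of 13 J genes, 5 passed an adjusted p of 0.05 with a higher share in short clonotypes (38.5% of genes tested) and 6 with a lower share (46.2%). With DESeq2 and its scaling the split was 5 higher and 4 lower. Shares within a class sum to a fixed total, so a higher share of some genes lowers others. Germline J bases are part of the length that chose the members, so a direction by germline length was favoured by that choice.

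The higher J genes under the naming rule were TRBJ1-1, TRBJ1-2 and TRBJ2-7, which contribute 20, 20 and 19 germline bases to CDR3. TRBJ1-2 made up 12.3% to 17.2% of short clonotypes over the 8 libraries (median 13.2%) and 6.91% to 8.79% of mid-length ones. Its log2 difference was 0.72 ± 0.0787 (SE, edgeR adjusted p = 0.000253). TRBJ2-7 made up 14.4% to 20.98% and 11.4% to 12.1%, with a log2 difference of 0.63 ± 0.0576 (SE, adjusted p = 0.00014). TRBJ1-1 made up 7.41% to 13.7% and 5.36% to 7.23%, with 0.73 ± 0.0963 (SE, adjusted p = 0.00056). The classes did not overlap over the 8 libraries for any of these 3 genes. They did not overlap either for TRBJ1-5, TRBJ1-6, TRBJ2-2, TRBJ2-4 and TRBJ2-6, all lower in short clonotypes. For TRBJ1-3, TRBJ1-4, TRBJ2-1, TRBJ2-3 and TRBJ2-5 they overlapped.

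The lower J genes under the rule were TRBJ2-6, TRBJ2-2 and TRBJ1-5, with 25, 23 and 22 germline bases. TRBJ2-6 made up 0.359% to 0.930% of short clonotypes and 3.01% to 3.96% of mid-length ones, a log2 difference of -2.12 ± 0.218 (SE, edgeR adjusted p = 0.000215). TRBJ2-2 made up 2.60% to 3.86% and 7.37% to 8.71%, with a log2 difference of -1.50 ± 0.135. TRBJ1-5 made up 2.33% to 4.52% and 6.72% to 8.67%, with -1.38 ± 0.120. Across the 13 J genes, which are not independent, the log2 difference and the germline length correlated at Pearson r = -0.825 and Spearman rho = -0.829, given as a description.

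Length alone did not order the J genes. TRBJ2-1 and TRBJ1-5 share 22 germline bases, yet TRBJ2-1 was higher in short clonotypes (log2 difference 0.27 ± 0.0701, edgeR adjusted p = 0.0144, higher in 8 of 8 libraries). TRBJ1-3, also with 22 bases, did not pass (log2 difference -0.18, adjusted p = 0.385). Weighted by counts, 0 J genes passed in edgeR (1 at an unadjusted p under 0.05), and the signs of TRBJ1-1, TRBJ1-2 and TRBJ2-7 turned to -0.20, -0.085 and -0.070.

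V gene use differed as well. Of 52 V genes tested, 8 passed with a higher share in short clonotypes (15.4%) and 11 with a lower one (21.2%). As for J, germline V bases are part of the length that chose the members. A direction by germline length was therefore favoured by that choice, and the p-values are not support for it. The number of calls depended on the libraries used. Without the Rocket day -4 library 0 of 34 V genes passed in edgeR (11 at an unadjusted p under 0.05), against 14 and 12 without either of the others, while the log2 difference without Rocket was 1.71 for TRBV29-1 and -1.35 for TRBV4-2, against 1.73 and -1.27 with all 3. DESeq2 called 10 V genes, all of them also called in edgeR, and edgeR without the library block called 3.

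TRBV29-1 stood out among the higher V genes. It made up 5.41% to 10.6% of short clonotypes over the 8 libraries (median 8.82%) and 1.79% to 3.08% of mid-length ones. At day -4 its shares were 8.71% ± 2.24 and 2.63% ± 0.722 (SD, n = 3), a log2 difference of 1.73 ± 0.148 (SE, edgeR adjusted p = 0.000917). Weighted by counts its log2 difference was 0.34 (edgeR adjusted p = 0.767). Its germline end has 13 CDR3 bases, against 16 in most V genes tested, and its CDR3 does not begin with the CASS residues common to many others.

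TRBV20-1, with 13 bases as well, made up 5.75% to 9.95% of short and 3.53% to 4.78% of mid-length clonotypes (log2 difference 0.93 ± 0.182, edgeR adjusted p = 0.013). Together, the 4 V genes with 13 germline bases made up 15.0% to 21.6% of short and 8.46% to 10.7% of mid-length clonotypes. The remaining higher genes under the rule have 16 bases. TRBV28 made up 1.30% to 3.59% of short and 0.686% to 1.42% of mid-length clonotypes, TRBV6-2 3.23% to 7.996% and 1.22% to 3.28%, and TRBV10-2 1.84% to 6.64% and 1.51% to 1.82%.

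TRBV4-3 was the lowest V gene relative to mid-length clonotypes. It made up 0.263% to 0.788% of short clonotypes and 2.18% to 3.89% of mid-length ones, a log2 difference of -2.65 ± 0.211 (SE, edgeR adjusted p = 0.000917). TRBV4-2, TRBV9, TRBV7-9 and TRBV21-1 followed under the rule, with log2 differences of -1.27, -1.28, -1.35 and -0.82. At day -4 short clonotypes numbered 16 for TRBV4-3 and 50, 42, 13 and 37 for the genes that followed. The low-count filter could be met by mid-length clonotypes alone, so these genes could pass it through the class where they are high. Without the filter the same 19 V genes passed. TRBV21-1 has 13 germline bases like TRBV29-1 and TRBV20-1 but moved the other way, and over the 52 V genes the log2 difference showed little relation to germline length (Pearson r = -0.16, Spearman rho = -0.0042, a description).

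**Figure D3:**
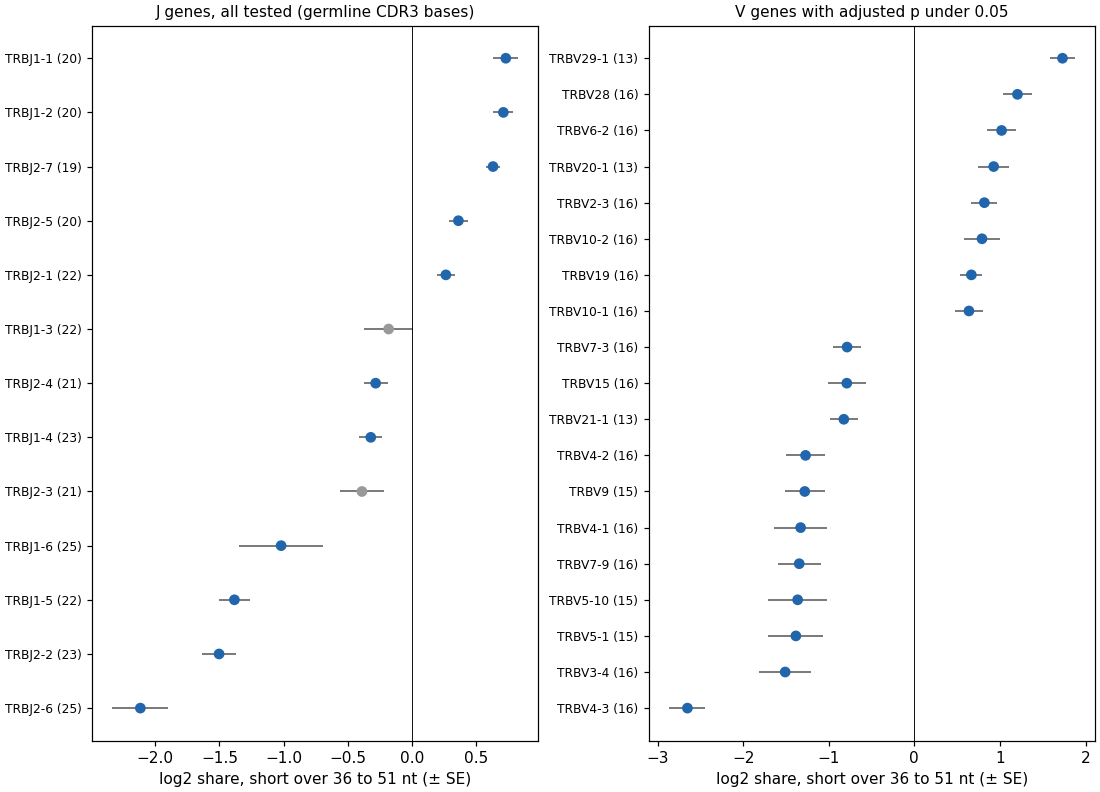
Difference in share between short and mid-length clonotypes at day -4 on the log2 scale, for all 13 J genes (left) and the 19 V genes with an adjusted p under 0.05 (right). Bars are the SE derived from the edgeR F statistic. Blue points passed and grey points did not, and germline CDR3 bases stand in parentheses. TRBV29-1 lies highest at 1.73 and TRBV4-3 lowest at -2.65.

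The amino acids of short clonotypes differed too. The CASS start, encoded by the end of many V segments, was present in 43.3%, 47.7% and 48.9% of short clonotypes in Amazo, Nebula and Rocket at day -4, and in 70.3%, 73.0% and 75.0% of mid-length ones. V trimming is part of the length that chose the members, so a lower share with this start was favoured by that choice. Between the first 4 and last 4 residues, glutamate made up 9.34% ± 0.286 of residues in short and 6.04% ± 0.0356 in mid-length clonotypes, and tyrosine 6.92% ± 0.943 and 4.43% ± 0.0558 (SD, n = 3). Both residues occur in the germline ends of several J segments. Glycine, which D segments encode in their common reading frames, made up 19.3% ± 0.561 and 21.1% ± 0.272. Among clonotypes without a D hit glycine made up 13.7% ± 1.49 of residues in short and 12.4% ± 0.221 in mid-length ones, and was higher in short in 2 of 3 libraries.

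Over all 8 libraries, 5 of 20 residues (glutamate, aspartate, tyrosine, histidine and phenylalanine) were higher and 5 (alanine, glycine, glutamine, serine and threonine) lower in short clonotypes in 8 of 8 libraries, each with an exact sign-flip p = 0.0078125. At day -4 the exact sign-flip test gave p = 0.25 for each of the 10. CDR3 length sets how many residues remain between the first 4 and last 4, and from which segments they come. The choice of members by length could therefore favour a direction, and these p-values are not support for it. A cysteine first and a phenylalanine or tryptophan last, the usual ends of CDR3, were found in 97.7% ± 0.535 of short and 99.3% ± 0.399 of mid-length clonotypes at day -4 (SD, n = 3).

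A typical short clonotype was about as abundant as a mid-length one. At day -4 the mean log10 count was 0.957, 0.244 and 0.513 in Amazo, Nebula and Rocket for short clonotypes and 0.941, 0.246 and 0.486 for mid-length ones, a difference of 0.0137 ± 0.0147 (SD, n = 3, exact sign-flip p = 0.5). Over all 8 libraries it was 0.0279, higher in 7 of 8 (exact sign-flip p = 0.015625). Clonotypes with a single count made up 10.4%, 42.05% and 14.9% of short and 9.94%, 42.3% and 15.8% of mid-length ones in Amazo, Nebula and Rocket at day -4. The means were 22.4% and 22.7%, and 12.6% and 12.9% without Nebula day -4, the library of lowest depth. Over all 8 libraries the share was lower in short clonotypes in 7 of 8 (exact sign-flip p = 0.03125).

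The libraries with a high share by counts were those with a few large members. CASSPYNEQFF held 4.06% of Amazo day -5 (14148 counts), 5.06% of Amazo day +3 (15373), 3.62% of Rocket day -4 (9409) and 4.04% of Rocket day -5 (22512). In Amazo day -4, Nebula day 0 and Nebula day -5 it had 7, 6 and 5 counts, and in Nebula day -4 it had 0, which allows up to 0.00703%. The 4 libraries in which it was large are those that held 1 repertoire under both names.

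The same 4 libraries held further large members. Both nucleotide forms of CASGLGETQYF, which differ at 3 bases, lay side by side at 0.830% and 0.796% in Amazo day -5, 0.957% and 0.842% in Amazo day +3, 0.868% and 0.703% in Rocket day -4, and 1.01% and 0.915% in Rocket day -5. Both forms of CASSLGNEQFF, which differ at 1 base, held 0.296% to 0.467% and 0.168% to 0.202% there. For this pair, copies that differ by an amplification or sequencing error were not tested. The share of short clonotypes lying 1 base from a clonotype of at least 10-fold higher count was 6.88%, 0.131% and 0.385% in Amazo, Nebula and Rocket at day -4, against 5.93%, 0.0573% and 0.297% of mid-length ones. Over the 8 libraries it was higher in short clonotypes in 5 and lower in 3.

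In Nebula, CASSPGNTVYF was largest at day -4 and day -5, with 0.0375% and 0.0556%, and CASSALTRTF at day 0, with 0.0283%. The Nebula members were thus far below the large ones of the other names.

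**Figure D4:**
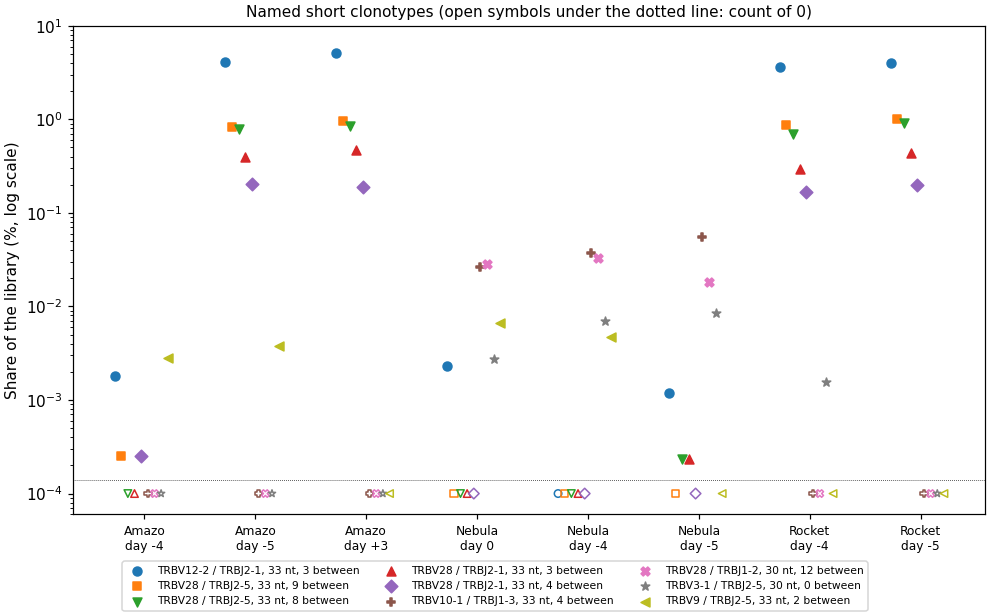
Share of each library, on a log scale, held by 9 named short clonotypes, which are given by V gene, J gene, CDR3 length and bases between V and J. Filled symbols are detected clonotypes and open symbols under the dotted line are counts of 0. The largest, of TRBV12-2 and TRBJ2-1, lies at 3.62% to 5.06% in Amazo day -5, Amazo day +3 and both Rocket libraries.

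Single short clonotypes of 0.1% or more in either library were followed between days, with a 2-fold change as the limit and no test, since there was 1 library per day. From Rocket day -5 to day -4, 0 of 5 passed in either direction, against 0% higher and 2.04% lower among 49 clonotypes of any length. From Amazo day -5 to day +3, 0 of 5 passed, against 0% higher and 10.6% lower among 47. No short clonotype of the Nebula libraries reached 0.1%, and 8.7% of 23 (day -5 to day -4, higher) and 9.09% of 22 (day -5 to day 0, lower) clonotypes of any length passed there.

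From Amazo day -5 to Amazo day -4, 3 of 8 short clonotypes were higher and 5 were lower, and 40% and 60% of 75 clonotypes of any length were. Every clonotype of any length therefore passed in that pair, whose libraries held different repertoires, and the count says nothing about short ones.

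Short sequences recurred between different repertoires more often than mid-length ones. At day -4, 2.05%, 2.23% and 1.62% of the short nucleotide sequences of Amazo, Nebula and Rocket were found in another day -4 library, against 0.343%, 0.267% and 0.264% of mid-length sequences. The difference was 1.67 ± 0.308 points (SD, n = 3, higher in 3 of 3, exact sign-flip p = 0.25). Of 3105 distinct short sequences, 30 were found in 2 of these libraries and 0 in 3, and of 67824 mid-length ones 97 and 1. Defined by amino acids, V gene and J gene, the shares were 1.95% ± 0.394 and 0.484% ± 0.0612.

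The difference was about as large without the large clonotypes. Without clonotypes of 0.1% or more in any library, a setting added after the data had been seen, it was 1.57 points. Among clonotypes with a single count the shares were 1.79%, 1.88% and 1.55% for short and 1.45%, 0.286% and 0.206% for mid-length sequences. Over all 8 libraries, where a sequence could recur in any other library, the shares among single-count clonotypes were higher in short in 5 of 8 (exact sign-flip p = 0.0625), and lower in Amazo day -4, at 2.68% against 3.50%. With each library thinned to the 40738 productive counts of Nebula day -4, the difference was 1.10 points.

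The pattern held across pairs of libraries, described here without a test because the pairs share libraries. In 38 of 38 ordered pairs with different repertoires, a larger share of short than of mid-length sequences was found in the other library. The medians were 0.998% and 0.259%, and the ratio ran from 1.46 to 10.3. In 18 ordered pairs that held 1 repertoire the medians were 7.19% and 7.09%, and short was higher in 11. Between Rocket day -5 and Rocket day -4, for example, 11.3% of short and 10.8% of mid-length sequences of the former were found in the latter. The Morisita-Horn index, which weighs counts, was lower over short clonotypes in the Nebula pairs, at 0.186, 0.253 and 0.237 against 0.911, 0.893 and 0.772 over mid-length ones. In the other pairs that held 1 repertoire it was 0.994 to 0.999 over short clonotypes.

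Sharing differed with the number of bases between V and J. With 0 to 2 bases between them, 8.21%, 11.5% and 7.81% of short sequences of Amazo, Nebula and Rocket at day -4 were shared, against 1.18%, 5.38% and 2.58% of mid-length ones. With 3 to 5 bases the shares were 2.97%, 1.83% and 1.46% against 1.42%, 1.25% and 0.866%. With 6 to 8 bases they were 0.649%, 0.455% and 0% against 0.461%, 0.436% and 0.478%, where the 0 of 370 clonotypes in Rocket allows a share of up to 0.811%. With 9 to 11 bases they were 0.424%, 0.649% and 0.368% against 0.443%, 0.226% and 0.284%. With 12 to 14 bases 0 of 91, 54 and 80 short sequences were shared, which allows up to 3.30%, 5.56% and 3.75%, against 0.233%, 0.170% and 0.146% of mid-length ones. Short sequences were shared more in 3 of 3 libraries in the bins of up to 5 bases and in 2 of 3 at 6 to 8 and at 9 to 11 bases. Defined by amino acids, V gene and J gene, the shares at 0 to 2 bases were 5.22%, 4.17% and 3.13% against 2.94%, 5.38% and 3.004%, so that Nebula was lower. Clonotypes in these bins were few, 96 to 192 short ones per library in the lowest. Within a bin the number of bases was not matched.

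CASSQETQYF and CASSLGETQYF are members of this shared class. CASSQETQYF was found in 2 day -4 libraries, with 3 counts in Nebula and 4 in Rocket, and also in Nebula day 0 (7 counts) and Nebula day -5 (36). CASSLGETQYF in the nucleotide form shown had 11 counts in Amazo day -4, 13 in Amazo day -5, 2 in Nebula day -4 and 17 in Nebula day 0. As an amino acid sequence it was the commonest among short clonotypes, with 20 clonotypes in 8 libraries, 11 nucleotide forms and 10 V genes, all joined to 1 J gene.

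**Figure D5:**
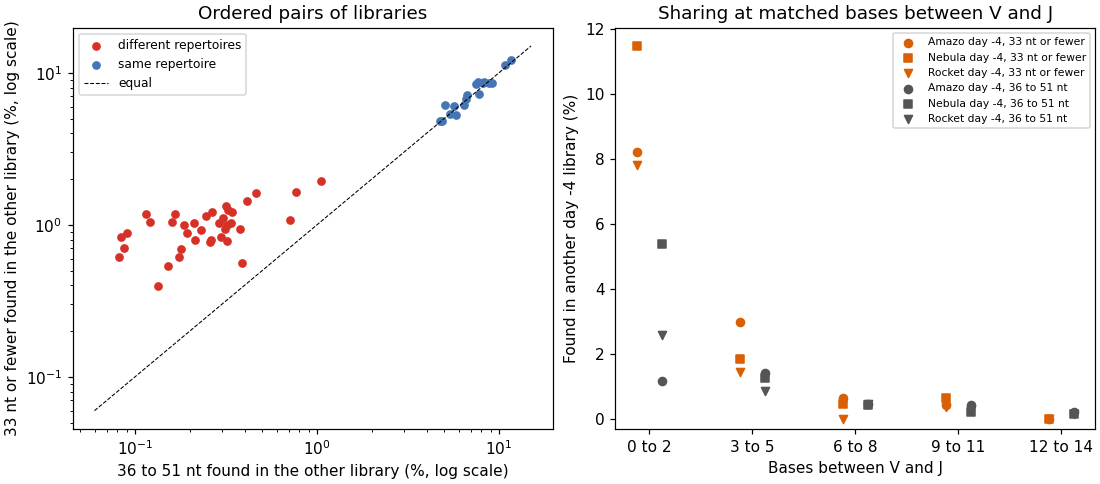
Left, for each ordered pair of libraries, the percentage of short sequences found in the other library against that of mid-length sequences, both on log scales. The 38 red pairs with different repertoires lie above the line of equality, and the 18 blue pairs with the same repertoire lie about it. Right, the percentage of sequences found in another day -4 library by bases between V and J, where short sequences reach 11.5% at 0 to 2 bases.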

How the data were processed

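TRB transcripts of blood mononuclear cells were enriched by template switching and PCR and read on a MiSeq. Per the series text the authors used Trimmomatic to clean the reads and MiXCR with its defaults to call clones from known rhesus TRB genes (versions not given in the sources used here). The deposited count per clone is a whole number, not normalized. The study's methods tag each cDNA with a barcode and merge sequences that share it, but the tables used here hold no barcode column, so whether a count is a molecule or a read cannot be told. The deposited fraction, which is the count over the library total, and the deposited quality score of the CDR3 were used only for checks. The authors' stated clone threshold is far above most deposited clones. PCR copies are not independent molecules, so intervals and floors (3 counts) cover counting error only. Libraries are labelled by name and day only, and p-values measure the spread between these libraries.

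V, D and J genes were the first hits. Bases from V, D and J came from the alignment points in the tables, and germline CDR3 bases from those points plus the trimmed bases. Where the V and J matches overlapped, the overlap was counted to V and the clonotype as having no base between V and J. Numbers of clonotypes per gene were tested with edgeR 4.0.16 in R 4.3.3 (total clonotype number as scaling, genes with at least 10 clonotypes in at least 3 columns). The SE of a log2 difference was its absolute value over the square root of the quasi-likelihood F statistic. DESeq2 1.42.0 was an alternative. Other values were tested by exact two-sided sign-flip permutation, computed in Python 3.11.15 with numpy 2.4.6. Wilson intervals came from scipy 1.17.1. The edgeR step was tested on simulated data. The 5 V genes of smallest p per direction and the 3 J genes of largest difference per direction were named if the adjusted p was under 0.05 and the direction equal in 8 of 8 libraries. Clonotypes named were the 5 of highest mean share, the largest of each library and the 5 found in the most day -4 libraries, of which 1 is not reported here. Members and lists were chosen with earlier results of these data known. Day -5 and day -4 were paired by animal name, and the short and mid-length clonotypes of a library by the library itself.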

Additional observations from a re-analysis of the deposited data

How the results depend on the processing

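Of 95 recomputed values that answer a comparison, 74 stayed in place, 19 moved and 2 turned in sign. Leaving out 1 day -4 library gave 0 to 14 V genes, 8 to 10 J genes and a sharing difference of 0.713 to 0.911 points, which falls by construction since fewer libraries remain. The sharing difference was 2.21 over all 8 libraries and 1.10 with each library thinned to 40738 productive counts. The D hit difference was -45.3 against 42 to 45 nt and -52.6 weighted by counts, the difference in bases between V and J -6.84 weighted by counts and -4.20 without a D hit, and that of glycine -5.78 weighted by counts. The difference in short share between days was 0.222 at 30 nt or fewer, and by counts it turned to 0.502 at 30 nt and 0.615 without large members. The difference in TRBD1 as first hit turned to -8.83 weighted by counts and the single-count difference to 0.0926 without Rocket day -4 (range -0.623 to 0.0926 over the libraries left out). At a limit of 0.5%, 4 Amazo clonotypes remained.

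V genes passing were 31 over all 8 libraries, 10 with DESeq2 (5 higher, 5 lower), 3 without the replicate block and 7 weighted by counts (0 higher, 7 lower). J genes passing were 0 weighted by counts, where TRBJ1-1, TRBJ1-2 and TRBJ2-7 reversed to -0.20, -0.085 and -0.070. DESeq2 scaling gave a median log2 difference of 0.11 over V genes against -0.053 and of -0.081 over J genes against -0.28. With no replicate block, the day -5 to day -4 difference of 0.475 points is unchanged. Of 185 recomputed values of the named V and J genes, 152 kept direction and call, 30 lost the call and 3 reversed. The causes were not tested. At baseline, 63 to 74 counts limit every value, and at 0 to 2 bases between V and J so do 96 to 233 clonotypes per class and library.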

Other observations

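Some members were far shorter than the rest. Clonotypes of 18 nt or fewer numbered 37 over the 8 libraries. The shortest held 12 nt, CAPF of TRBV23-1 and TRBJ1-2 in Nebula day 0 (32 counts) and CALF of TRBV7-4 and TRBJ1-2 in Amazo day -4 (10 counts). Both had lost 10 bases of V and 15 or 16 bases of J and held 1 or 2 bases between them. Of the 10 clonotypes of 15 nt, 7 began with cysteine and ended with phenylalanine or tryptophan, and of the 25 of 18 nt 52.0% did, against 98.6% of those of 33 nt.

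Rows of 33 nt or fewer with a stop codon or frame shift numbered 668 over the 8 libraries, 4.64% to 11.4% of all rows of that length. Their D hit shares were 21.7% to 30.2%, lower than in productive short clonotypes of the same library in 7 of 8 libraries. Their mean bases between V and J were 5.21 to 6.81, lower in 8 of 8. They had lost 7.96 to 9.03 bases of J on average. The largest held 0.225% of Amazo day -4, and in the other 7 libraries none exceeded 0.0209%.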
